A study of Mus musculus with 6 samples.

Results

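The genes described here are the amino acid transporters of the solute carrier (Slc) families Slc1, Slc3, Slc6, Slc7, Slc36, Slc38 and Slc43, chosen by gene symbol from the array's annotation. The symbol rule found 64 of the 19935 genes measured, and 62 of them are transporters or transporter subunits. The other 2, Slc6a19os and Slc7a6os, are transcripts opposite such genes. The samples were 6 cultures of primary keratinocytes, the main cells of the epidermis, taken from wild type CD1 mice and grown in low-calcium medium. In 3 cultures a retrovirus carried caNFATc1, a human NFATc1 whose mutated autoinhibitory domain leaves it constitutively active. In the 3 vector control cultures the retrovirus was the empty MSCV vector, so all cultures had been infected. The labels give no age or number of mice. The comparison asks which transporter transcripts differ when NFATc1, a transcription factor normally switched on by the calcium-dependent phosphatase calcineurin, is active in these cells.

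Amino acids cross membranes largely through transport proteins, and each Slc family does this in its own way. Slc1 proteins carry glutamate, aspartate or small neutral amino acids with sodium, and Slc6 proteins use sodium and chloride to carry taurine, creatine, glycine, neutral amino acids and neurotransmitters. The light chains of Slc7 exchange one amino acid for another and reach the cell surface bound to a heavy chain of Slc3, while the cationic transporters of Slc7 work alone. Slc36 proteins are proton-coupled carriers of small amino acids, Slc38 proteins carry glutamine and other neutral amino acids with sodium, and Slc43 proteins are facilitators for large neutral amino acids. When amino acids are short, the transcription factor ATF4 raises the transcription of several of these genes through a composite DNA element. In skin, cystine taken up by the Slc7a11 light chain feeds the synthesis of glutathione.

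Promoter sequence held the core of this element in 1 of 3 genes that differed. The following are the 250 bases before the annotated start of the 3 called genes that the RefSeq table for GRCm38.p6 holds, 5′ to 3′ on the gene's strand. They are shown because Slc7a11 and Slc7a8 were the light chain genes that fell and Slc36a4 rose. Capitals mark GGAAA, the core bound by NFAT, and TGATGNAAN, the core of the amino acid response element, each searched on both strands.
Slc7a11, chr3:50443614-50443863, minus strand: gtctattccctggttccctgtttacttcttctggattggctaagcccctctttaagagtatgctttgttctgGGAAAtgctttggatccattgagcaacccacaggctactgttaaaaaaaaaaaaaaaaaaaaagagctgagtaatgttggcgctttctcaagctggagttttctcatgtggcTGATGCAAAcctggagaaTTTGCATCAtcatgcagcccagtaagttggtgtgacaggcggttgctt
Slc36a4, chr9:15709488-15709737, plus strand: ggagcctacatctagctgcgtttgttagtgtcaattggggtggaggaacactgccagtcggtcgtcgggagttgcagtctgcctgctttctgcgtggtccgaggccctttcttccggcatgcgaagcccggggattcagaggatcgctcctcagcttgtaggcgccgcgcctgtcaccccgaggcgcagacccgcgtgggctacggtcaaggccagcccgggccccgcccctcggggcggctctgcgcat
Slc7a8, chr14:54781887-54782136, minus strand: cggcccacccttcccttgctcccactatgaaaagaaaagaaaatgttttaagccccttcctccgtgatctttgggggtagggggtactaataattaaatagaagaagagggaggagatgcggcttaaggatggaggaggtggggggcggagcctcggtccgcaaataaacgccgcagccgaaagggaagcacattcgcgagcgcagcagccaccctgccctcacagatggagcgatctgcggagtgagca
The Slc7a11 promoter holds 2 copies of the amino acid response core, 1 on each strand, at bases 66 to 58 and 48 to 40 before the start, and 1 GGAAA at bases 178 to 174. The other 2 promoters hold neither motif in this window. Of all 32851 promoters of the table, cut to the same length, 55.6% hold GGAAA, 3.44% hold TGATGNAAN and 0.0396% hold it at least 2 times. Among the transporter genes, 45 had a promoter in the table, with 66 promoters in all, of which 31 held GGAAA and 4 held TGATGNAAN. A match is a run of letters and not a shown binding site. Bases outside this window were not searched, so a gene without a match may hold the motif elsewhere.

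The deposited values are log2 intensities from which each row's median over the 6 arrays has been taken away. They give differences between arrays and hold no level, so neither the order of the transporters by abundance nor the identity of the cells from their markers could be read. Rcan1, a known NFAT target, was at 2.17, 1.44 and 1.83 in caNFATc1 cultures, against -1.44, -1.68 and -1.57 in vector control cultures, a 10.4-fold difference. Same-numbered arrays of both groups moved together, and the fit treats them as pairs (the replicate block). In this fit limma called 6.11% of all genes at a Benjamini-Hochberg adjusted p under 0.05 over 19935 genes, 3.73% higher and 2.38% lower in caNFATc1 cultures. Without the block it called 0.216%. At an unadjusted p under 0.05 the blocked fit gave 21.5% of all genes. Because few calls survive without the block, its adjusted p stands beside each call below. Differences are caNFATc1 minus vector control in log2 units with limma's standard error (SE), from 3 pairs and a variance moderated across all genes. Markers of other cells were compared in the same way: 8 of 9 fibroblast markers were positive, with list means between -0.23 and 0.72 in caNFATc1 arrays and between -0.39 and -0.06 in vector control arrays. Of these Col3a1 rose by 1.20 ± 0.19 (adjusted p = 0.0296, and 0.108 without the block). The high value of 0.72 belonged to caNFATc1 replicate 3. The low values of -0.23 and -0.39 belonged to replicate 1 of each group, where Vim was at -2.92 in caNFATc1 and -2.98 in vector control. Of 12 keratinocyte markers 5 differences were positive and 7 negative, with a median of -0.01. Trp63, a transcription factor of the basal layer, rose by 0.42 ± 0.08 (adjusted p = 0.0444, and 0.322 without the block) and was the one called. Krt15, a basal keratin, chosen after its value was seen, had the lowest difference of the list (-0.58 ± 0.18, adjusted p = 0.132). Of 10 melanocyte, 10 immune and 8 endothelial markers limma called 0 (0, 1 and 0 at an unadjusted p under 0.05). Of 11 measured cell division genes limma called 6 lower (54.5%, against 2.38% of all genes) and 0 without the block (9 at an unadjusted p under 0.05). These were Ttk, Bub1b, Tyms, Mcm5, Mki67 and Cdc6. Their differences lay between -0.94 ± 0.13 for Ttk (adjusted p = 0.0203, and 0.0788 without the block) and -0.64 ± 0.10 for Cdc6 (0.0280, and 0.123 without the block). Bub1b had adjusted p = 0.0240 (0.0722 without the block), Tyms 0.0310 (0.132), Mcm5 0.0440 (0.118) and Mki67 0.0486 (0.315). All 11 had negative differences in all 3 pairs, with list means between -0.74 and -0.11 in caNFATc1 arrays and between 0.15 and 0.33 in vector control arrays. The part of these markers in the transporter results was not tested, and in bulk RNA fewer cells of a type cannot be told apart from less RNA per cell.

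Of the 64 genes, 3 rose and 2 fell in caNFATc1 cultures. The 3 that rose were the Slc43 facilitator gene Slc43a3, the taurine transporter gene Slc6a6 and the Slc36 gene Slc36a4. The 2 that fell were the light chain genes Slc7a11 and Slc7a8. These 5 calls are 7.81% of the 64 genes, close to the 6.11% of all genes. The median difference of the 64 genes was -0.01, the same as that of all genes, and 46 of the 64 differed by less than 0.2. The 5 genes belong to 4 families, Slc43, Slc6, Slc36 and Slc7.

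Slc43a3 had the largest difference of the 64 genes. Its protein is described in human as a carrier of purine nucleobases, although its relatives carry large neutral amino acids. The gene was at 0.69, 0.91 and 1.34 in caNFATc1 cultures, against -0.69, -0.76 and -0.69 in vector control cultures. All caNFATc1 arrays lay above all vector control arrays, and the vector control values were nearly equal. The difference was 1.69 ± 0.13 or 3.23-fold (adjusted p = 0.00604, and 0.0354 without the block), with 1.38, 1.67 and 2.03 in the 3 pairs. It ranked 46 among all genes by signed difference. Its family members differed in size: Slc43a2, a facilitator of large neutral amino acids, was at -0.10, 0.64 and 0.54 in caNFATc1 cultures, against -0.37, -0.24 and 0.10 in vector control cultures. Its groups overlapped, though every pair was positive, and the difference of 0.53 ± 0.12 did not pass (adjusted p = 0.0674). Slc43a1, another facilitator of large neutral amino acids, differed by -0.07 ± 0.08 (95% interval -0.27 to 0.13).

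Slc6a6 encodes the transporter for taurine, an amino acid derivative that cells store as an osmolyte. It was at 0.77, 0.58 and 0.34 in caNFATc1 cultures, against -0.34, -1.01 and -0.70 in vector control cultures. The groups did not overlap. The difference was 1.25 ± 0.12 or 2.38-fold (adjusted p = 0.00868, and 0.0748 without the block), with 1.12, 1.58 and 1.05 in the pairs. Of the 20 transporter genes of Slc6, Slc6a6 was the one called, 7 differences were positive and 13 negative, and 16 were smaller than 0.2. The GABA transporter gene Slc6a13 differed by 0.40 ± 0.17 (adjusted p = 0.268), with 0.09, 0.16 and 0.95 in the pairs, so that most of the difference came from pair 3. The creatine transporter gene Slc6a8 differed by 0.03 ± 0.08. The serotonin transporter gene Slc6a4 was at 0.09, -0.14 and -0.19 in caNFATc1 cultures, against 0.82, -0.09 and 1.04 in vector control cultures, and its difference of -0.67 ± 0.21 did not pass (0.139). Its vector control arrays 1 and 3 were high and array 2 was not, and without replicate 2 of both groups the gene passed (-0.98 ± 0.14, 0.0252).

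Slc36a4 is a member of the proton-coupled family that is described in human as a carrier of proline and tryptophan. It was at 0.78, 0.01 and 0.64 in caNFATc1 cultures, against -0.01, -0.49 and -0.18 in vector control cultures. The groups were separated by only the small gap between caNFATc1 replicate 2 and vector control replicate 1, since both arrays of replicate 2 were low. Within pairs the differences were 0.79, 0.50 and 0.81, and the mean of 0.70 ± 0.09 or 1.63-fold passed with the block (adjusted p = 0.0159) and not without it (0.282). The other 3 Slc36 genes stayed between -0.05 and 0.14 and none passed by limma (0 at an unadjusted p under 0.05). Slc36a1, whose protein also sits on lysosomes, differed by 0.14 ± 0.06 (0.288) and Slc36a2 by -0.05 ± 0.07 (0.791).

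**Figure D1:**
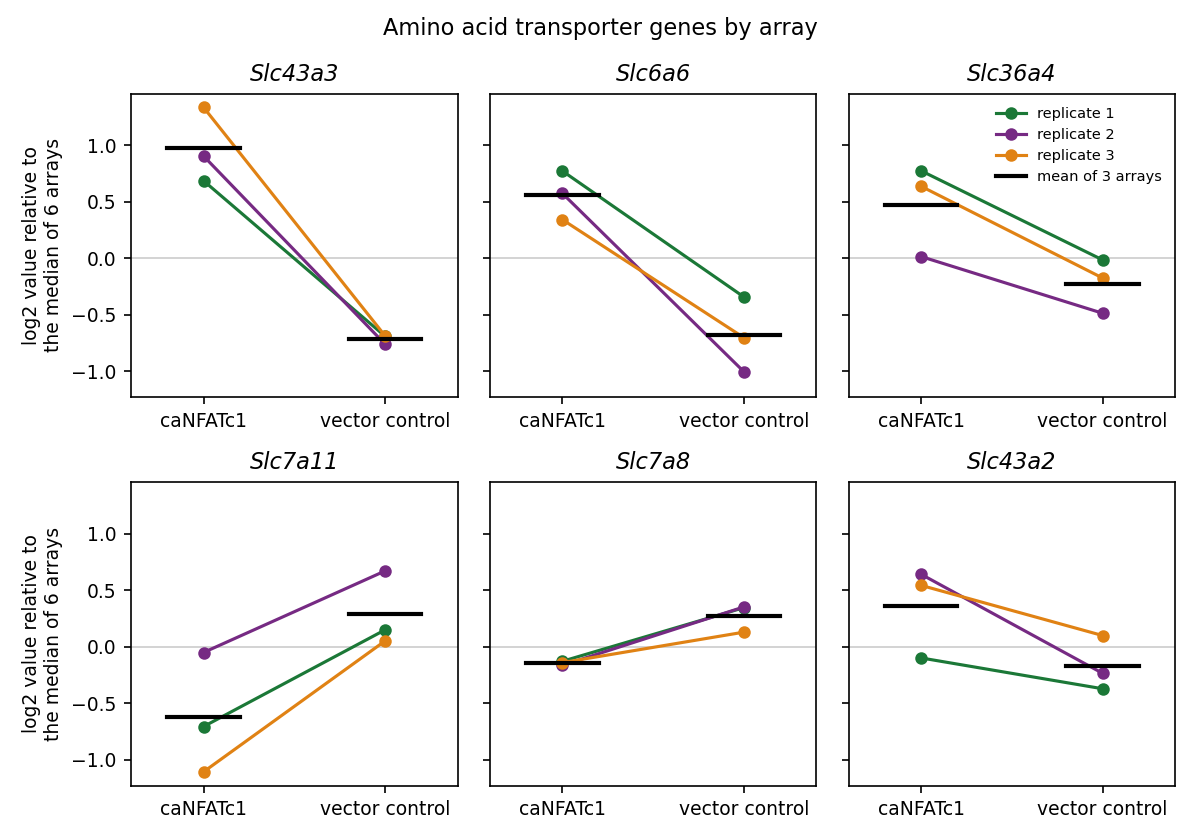
Log2 value relative to the median of the 6 arrays (y axis) for each array in caNFATc1 and vector control cultures (x axis), with same-numbered arrays joined and black bars for the mean of 3 arrays. In each panel every line slopes the same way, down to vector control for Slc43a3, Slc6a6, Slc36a4 and Slc43a2 and up for Slc7a11 and Slc7a8, although the lines start at different heights.

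Slc7a11 fell the most of the 64 genes. It is the light chain of the cystine-glutamate exchanger. It was at -0.71, -0.05 and -1.11 in caNFATc1 cultures, against 0.15, 0.67 and 0.05 in vector control cultures. The groups did not overlap, but both arrays of replicate 2 were higher than their group, so the gap between the groups was narrow. Within pairs the differences were -0.86, -0.72 and -1.16, with a mean of -0.91 ± 0.10, a 1.88-fold lower value (adjusted p = 0.0118, and 0.289 without the block). Slc7a8, a light chain that exchanges neutral amino acids, was at -0.13, -0.17 and -0.14 in caNFATc1 cultures, against 0.35, 0.35 and 0.13 in vector control cultures. The caNFATc1 arrays were nearly equal and all lay below the vector control arrays. The difference was -0.42 ± 0.08, a 1.34-fold lower value (adjusted p = 0.0389, and 0.104 without the block). This call was lost without replicate 1 of both groups (adjusted p = 0.0919) and without replicate 2 (0.150), with differences of -0.39 and -0.37.

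The partners of these light chains did not pass. The heavy chain gene Slc3a2, whose protein joins Slc7a5, Slc7a8, Slc7a11 and others, was at -0.02, 0.08 and -0.36 in caNFATc1 cultures, against 0.27, 0.02 and -0.12 in vector control cultures. Its groups overlapped and its pairs differed in sign (-0.30, 0.05 and -0.25), with a difference of -0.16 ± 0.09 (adjusted p = 0.380, 95% interval -0.39 to 0.06). Slc7a5, a light chain for large neutral amino acids, differed by -0.30 ± 0.14 (0.289), with -0.66, 0.05 and -0.29 in the pairs, the same order of pairs as Slc3a2. The heavy chain gene Slc3a1, known as the kidney partner of the light chain Slc7a9, differed by 0.19 ± 0.06 (0.157), with all 3 pairs positive, and Slc7a9 by -0.08 ± 0.07. Of the 10 light chain genes measured, 3 differences were positive and 7 negative, with a median of -0.04. Of the 5 cationic transporter genes limma called 0 (0 at an unadjusted p under 0.05). Slc7a1, the widely expressed arginine and lysine carrier, had pair differences of -0.38, 0.56 and 0.15 (mean 0.11 ± 0.17, 0.815), and Slc7a3 had -0.32, 0.86 and 0.13 (0.23 ± 0.21, 0.645).

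In Slc1, limma called 0 of 7 genes, with 1 at an unadjusted p under 0.05. That gene was Slc1a1, a carrier of glutamate and cysteine, which was at 2.15, -0.03 and 0.03 in caNFATc1 cultures, against 0.06, -0.44 and -0.51 in vector control cultures. caNFATc1 replicate 1 stood far above the other arrays. The pair differences were 2.09, 0.40 and 0.54, and the mean of 1.01 ± 0.33 did not pass (adjusted p = 0.144). Without replicate 1 of both groups the difference was 0.47 ± 0.08 and passed (0.0486). Slc1a4, an exchanger of alanine, serine and cysteine, differed by 0.31 ± 0.15 (0.314). Slc1a5, a main glutamine carrier of many dividing cells, differed by -0.07 ± 0.12 (0.840). Slc1a3, a glutamate carrier best known from glia, differed by 0.02 ± 0.15 (0.966), with 0.46, -0.27 and -0.13 in the pairs.

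The 11 genes of Slc38 lay more often above 0 than below it, 9 against 2, but the differences were small and none passed in limma (3 had an unadjusted p under 0.05). The median was 0.10 and the range -0.23 to 0.27. Slc38a2, a sodium-coupled carrier of neutral amino acids that cells raise in amino acid shortage, was at 0.15, 0.25 and 0.03 in caNFATc1 cultures, against -0.03, -0.23 and -0.13 in vector control cultures. Its groups did not overlap and the difference was 0.27 ± 0.09 (adjusted p = 0.145). The glutamine carrier gene Slc38a3 lay the other way, at -0.19, -0.07 and -0.11 in caNFATc1 cultures, against 0.15, 0.11 and 0.07 in vector control cultures. Its groups did not overlap either, and its difference was -0.23 ± 0.07 (0.124). In all, 8 of the 64 genes had groups that did not overlap, which is below the 18.7% among all genes.

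**Figure D2:**
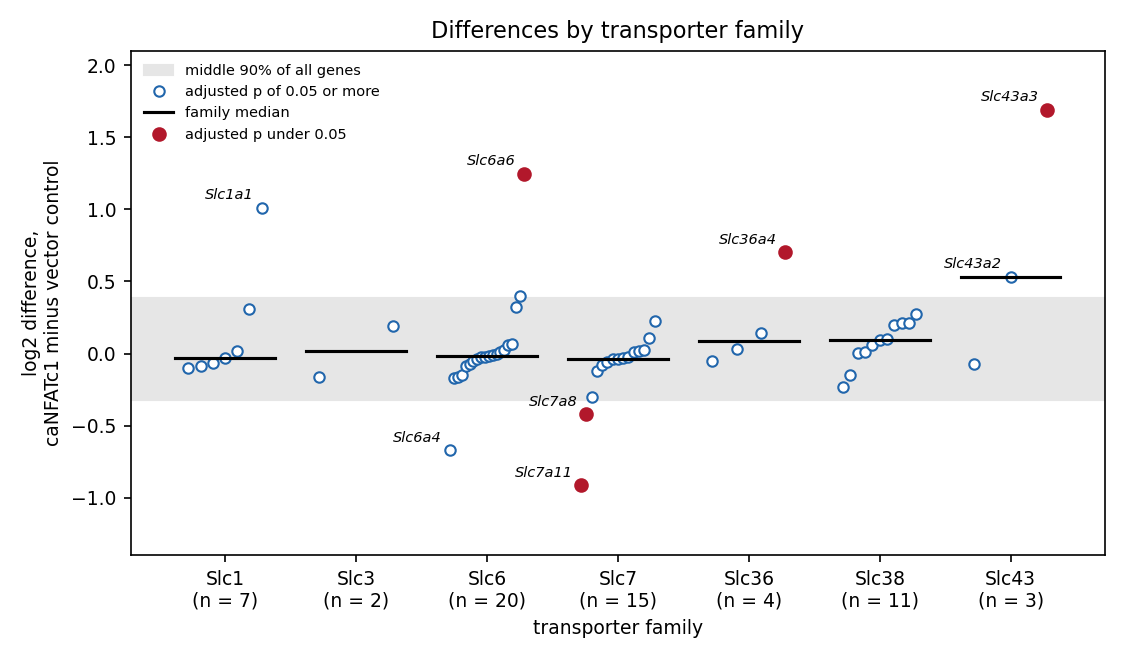
Log2 difference, caNFATc1 minus vector control (y axis), of the 62 transporter genes by Slc family (x axis), with a black bar for the family median and a grey band for the middle 90% of all genes, from -0.33 to 0.39. Filled points passed limma with the replicate block: Slc43a3, Slc6a6 and Slc36a4 above the band and Slc7a8 and Slc7a11 below it.

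Set side by side, the family medians were -0.03 in Slc1, 0.01 in Slc3, -0.02 in Slc6, -0.04 in Slc7, 0.09 in Slc36, 0.10 in Slc38 and 0.53 in Slc43, against -0.01 over all genes. The Slc43 median rests on 3 genes and is the value of Slc43a2. Calls were 0 of 7 in Slc1, 0 of 2 in Slc3, 1 of 20 in Slc6, 2 of 15 in Slc7, 1 of 4 in Slc36, 0 of 11 in Slc38 and 1 of 3 in Slc43. Over all genes the share called was 6.11%, and counts in families this small cannot show a departure from it. The differences between families were not tested. The pairs also differed: the median over the 62 transporter genes was -0.13 in pair 1, 0.06 in pair 2 and 0.06 in pair 3, where that over all genes was -0.06, 0.02 and 0.01.

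**Figure D3:**
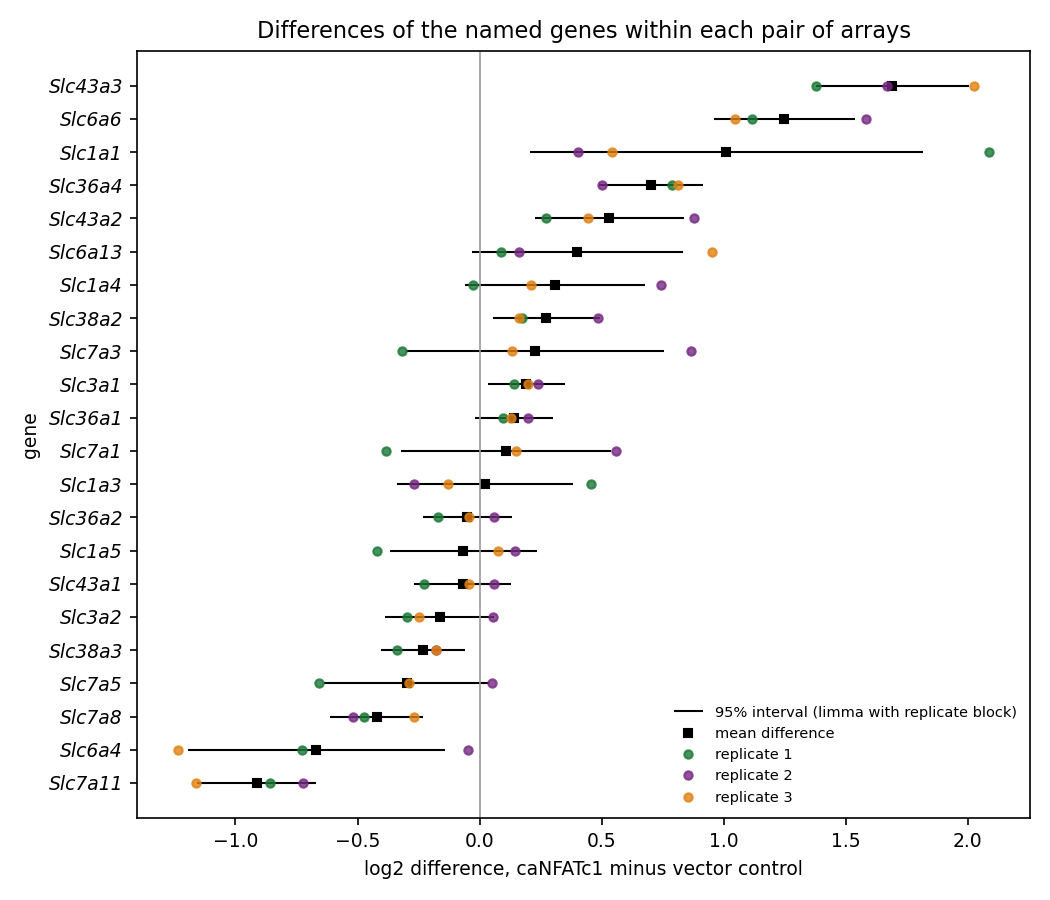
Log2 difference, caNFATc1 minus vector control (x axis), of 22 transporter genes (y axis), with coloured points for the 3 same-numbered pairs, black squares for their mean and lines for the 95% interval of the limma fit with the replicate block. The points of Slc43a3, Slc6a6, Slc36a4, Slc7a8 and Slc7a11 lie on one side of 0, as do those of some genes that did not pass, such as Slc43a2 and Slc3a1. The pair 1 point of Slc1a1 lies at 2.09, away from its other points.

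Several transporters differed far more between replicate numbers than between groups. In 46 of the 64 genes the largest gap between the means of the 3 replicate numbers exceeded the difference between groups, as it did in 70.9% of all genes. The largest gap over 3 means of 2 arrays tends to exceed 1 difference between means of 3 arrays from noise alone. This count therefore does not show which effect is larger. The F test of the replicate term in the same fit, added after the values were seen, called 8 of the 64 genes (12.5%), where 6.71% of all genes were called. Slc38a4, a carrier of neutral and cationic amino acids, was at -2.81, -0.10 and 0.14 in caNFATc1 cultures, against -3.05, 0.10 and 0.62 in vector control cultures. Both arrays of replicate 1 were low in this gene (F test adjusted p = 0.00264), and its groups differed by -0.15 ± 0.14. Slc38a1, a related glutamine carrier, was high in replicate 1 instead, at 1.32, 0.12 and -0.12 in caNFATc1 cultures, against 1.44, -0.18 and -0.13 in vector control cultures (0.00630). Both of its rows were high in replicate 1. Slc6a14, a broad carrier of neutral and cationic amino acids, was high in replicate 2, at -0.17, 1.31 and -0.24 in caNFATc1 cultures, against -0.02, 1.35 and 0.02 in vector control cultures (0.00363). Slc7a3 differed between all replicate numbers, at 1.01, 0.43 and -1.14 in caNFATc1 cultures, against 1.33, -0.43 and -1.28 in vector control cultures (0.0188). The other genes called were Slc36a1, Slc38a7, Slc7a11 and Slc36a4, the last 2 of which also differed between groups. Slc43a3, Slc6a6 and Slc7a8 differed between groups and were not called for the replicate number.

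**Figure D4:**
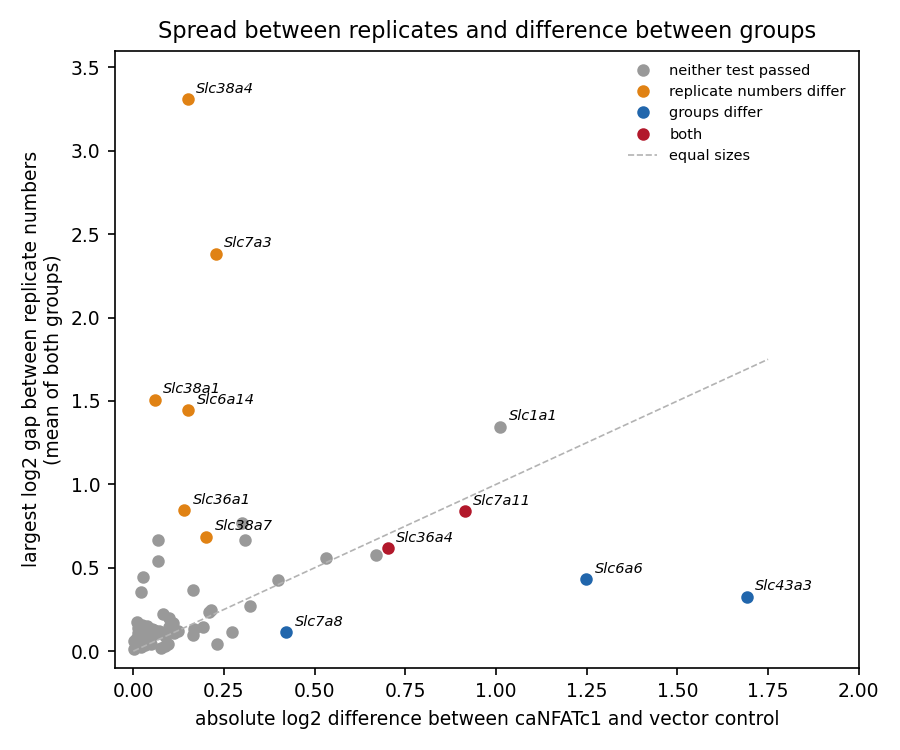
Largest log2 gap between the means of the 3 replicate numbers (y axis) against the absolute log2 difference between caNFATc1 and vector control (x axis) for the 64 genes, coloured by which test passed. Slc38a4 and Slc7a3 lie high on the left, with gaps of 3.31 and 2.38, and Slc43a3 and Slc6a6 lie low on the right.

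Genes around the transporters were examined in lists written from general knowledge, with earlier results of these data known. Of the 9 transporter genes known as ATF4 targets, Slc7a11 fell and the other 8 did not pass (11.1% called, against 6.11% of all genes). Of their differences 5 were positive and 4 negative, with a median of 0.07. Of 26 measured genes of the amino acid response, 2 rose and 1 fell (11.5% called, against 6.11% of all genes). At an unadjusted p under 0.05 limma gave 23.1% of the list, close to the 21.5% of all genes. The median was 0.06, with 14 differences positive and 12 negative. Nupr1, a stress-induced chromatin protein gene, was at 2.34, 0.32 and 0.82 in caNFATc1 cultures, against -0.32, -1.79 and -2.13 in vector control cultures. Its groups did not overlap and it rose 5.96-fold (2.57 ± 0.16, adjusted p = 0.00382, and 0.198 without the block). The transcription factor gene Atf3 rose by 0.47 ± 0.07 (0.0219, and 0.820 without the block) and Cebpb fell by 0.43 ± 0.07 (0.0310, and 0.242 without the block). Atf4 itself differed by -0.07 ± 0.07 (0.718) and the amino acid sensor gene Sesn2 by -0.07 ± 0.16 (0.886). Asns, which makes asparagine and is a standard readout of this response, differed by -0.01 ± 0.08 (0.984). These 3 genes were chosen after their values were seen, as were the next 3, which differed more and did not pass. Psat1 differed by 0.55 ± 0.18 (0.153), Ddit3 by 0.33 ± 0.08 (0.0719) and Shmt2 by -0.31 ± 0.08 (0.0793).

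Of 35 measured genes of amino acid sensing and the growth kinase complex mTORC1, 29 differences were positive with a median of 0.06. Limma called 1 of them (2.86%, against 6.11% of all genes), and 11.4% had an unadjusted p under 0.05, against 21.5% of all genes. The gene called was Sesn3, a stress-induced sestrin, which rose by 0.32 ± 0.06 (adjusted p = 0.0434, and 0.895 without the block), by 0.32, 0.32 and 0.33 in the pairs. Of 23 measured enzymes of glutamine, branched-chain amino acids and arginine, limma called 0, with 12 at an unadjusted p under 0.05 (52.2%, against 21.5% of all genes) and a median of -0.07. The largest difference there was that of Arg2, the mitochondrial arginase, chosen after its value was seen. Arg2 was at 3.31, 0.27 and 2.24 in caNFATc1 cultures, against -0.79, -0.27 and -0.28 in vector control cultures. All caNFATc1 arrays were higher, but the pairs differed by 4.10, 0.54 and 2.52 and the mean of 2.39 ± 0.61 did not pass (0.0870). Of the 23 differences 9 were positive and 14 negative. Glud1, with the lowest adjusted p of the list, differed by 0.31 ± 0.07 (0.0524), and Bcat1 by 0.96 ± 0.24 (0.0822). Both were named after their values were seen, as was Gclc. Gclc, the catalytic subunit of an enzyme of glutathione synthesis, differed by -0.41 ± 0.10 (0.0682). Gclm, which encodes the other subunit, differed by -0.18 ± 0.13 (0.522), with -0.39, -0.36 and 0.21 in the pairs. A link of Gclc and Gclm to Slc7a11 was not tested.

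Of 23 measured transporter genes outside the 7 families, 4 rose and none fell by limma (17.4% called, against 6.11% of all genes), with a median of 0.00. At an unadjusted p under 0.05 there were 9 (39.1%, against 21.5% of all genes). The list also holds carriers of other solutes, among them the called genes Slc29a1 and Slc22a5. It was written with earlier results of these data known, so its share of calls is no measure of amino acid transporters. Slc25a15, the mitochondrial ornithine carrier of the urea cycle, was at 0.81, 0.47 and 0.20 in caNFATc1 cultures, against -0.20, -0.64 and -0.69 in vector control cultures. Its groups did not overlap, and it rose 2.00-fold (1.00 ± 0.07, adjusted p = 0.00596, and 0.118 without the block). The nucleoside transporter gene Slc29a1 rose by 1.97 ± 0.17 (0.00633, and 0.0298 without the block). The carnitine transporter gene Slc22a5 rose by 0.53 ± 0.10 (0.0424, and 0.0907 without the block), and Slc17a5, which exports sialic acid from lysosomes, by 0.36 ± 0.07 (0.0486, and 0.328 without the block).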

How the data were processed

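Total RNA of 6 cultures was measured on 6 single-colour arrays as biotin-labelled cDNA, 3 arrays per group. The table the authors deposited holds log2 values in 28815 rows. RMA was used, with mm8 as the genome build, per the submitters' processing notes, while the software is not given. Every row's median over the 6 arrays was 0 within 5e-07. Base 2 was taken from RMA. No scanner signal was used, and the number of arrays limits the precision.

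The platform annotation gave 1 symbol to 21780 rows, several to 1605 and none to 5430. Of the 66 rows of the 64 genes, Slc38a1 and Slc38a9 had 2 each, which were averaged. Slc6a20a and Slc6a20b are close copies and may share probe signal.

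The groups were compared with limma 3.58.1 (R 4.3.3), lmFit and eBayes, with group and replicate number as terms, two-sided, over 19935 genes. The member rule asks for pairing by replicate number. Across genes, array deviations from the group mean correlated at 0.71, 0.61 and 0.57 for equal numbers, above the limit of 0.1, and at -0.60 to 0.18 for unequal ones. The design text calls the replicates biological without saying what same-numbered cultures share, so p-values rest on the spread between these pairs. In eBayes the variance of each gene is also drawn toward a value shared by all genes. The SE of a steady gene therefore exceeds that of its own pairs, as for Sesn3 (pairs 0.32, 0.32 and 0.33, SE 0.06). The members, lists and tests were chosen with earlier results of these data known. Genes named were all called members, the 2 of each family with the largest difference among the others, 8 fixed genes and all called genes of each pathway and marker list. Members named for replicate spread, and Slc6a8 and Slc7a9, were named after their values were seen. The fit was also run on data simulated from its own variances and block effects, which checks the code and neither the pairing nor the real noise. Alternatives were the fit without or with a random block, pairs or arrays left out, other row choice, scaling, robust eBayes and a filter on spread.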

Additional observations from a re-analysis of the deposited data

How the results depend on the processing

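The 5 calls kept their direction in all 16 alternatives, but in most of them this was fixed in advance. Their groups did not overlap, so leaving out pairs or arrays could not turn a sign. The choice of block does not change the difference itself. With no replicate block, 43 genes were called in place of 1219, and of the transporters 1 was higher (Slc43a3) and 0 lower, where limma gave 8 transporters an unadjusted p under 0.05. With a random replicate block, whose correlation was 0.31, 433 genes were called (73% higher, against 61%), and Slc43a3, Slc6a6 and Slc7a8 remained, so that 1 transporter was lower. Slc36a4 and Slc7a11 then had adjusted p = 0.0975 and 0.1003. Leaving out 1 pair gave 711 to 1086 genes, 3 to 4 transporters higher and 1 to 2 lower, and Slc43a3, Slc6a6, Slc36a4 and Slc7a11 passed each time. Leaving out 1 array with no replicate block gave 0 to 83 genes, 0 to 1 transporters higher and 0 lower, with 6 to 9 transporters at an unadjusted p under 0.05 in limma. In these settings Slc43a3 passed without caNFATc1 replicate 1 and did not pass without any of the other 5 arrays. Removing the genes of smallest spread, which leaves 14951 tests, gave 1968 genes. Of the 49 genes of the symbol rule that were left, 8 were called, where 1968 of all 14951 genes were. Of these 8, 5 were higher and 3 lower, and Slc1a1, Slc43a2 and Slc6a4 joined the calls. Spread over the arrays of both groups includes the difference between groups, so such a filter favours genes that differ. The added calls are therefore no separate evidence for these genes. Largest-spread rows, array centring, quantile normalization and robust eBayes called the same 5 transporters. The sign of 7 named genes that did not pass depended on single pairs or arrays, with ranges of -0.20 to 0.21 for Slc1a3, -0.27 to 0.14 for Slc1a5, -0.12 to 0.42 for Slc36a1, -0.12 to 0.0093 for Slc36a2, -0.14 to 0.0090 for Slc43a1, -0.12 to 0.36 for Slc7a1 and -0.35 to 0.96 for Slc7a3. Slc1a3 was at -0.069 with quantile normalization. The cause of these changes was not tested.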
